A study of Mus musculus with 18 samples.

Results

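Nuclear genes for the subunits of the oxidative phosphorylation system were followed on 18 two-channel cDNA arrays of mouse kidney. Members were the genes whose single annotated symbol begins with Nduf, Uqcr, Atp5 or Cox followed by a digit from 4 to 8, together with Cyc1. Of 59 such genes, 53 had values on 12 or more arrays and were kept, out of 8163 features (5511 genes and 2652 probes without a single symbol) kept by the same minimum. The 53 comprised 20 subunits of complex I, 6 of complex III, 8 of complex IV, 15 of complex V, 3 assembly factors (Ndufaf1, Ndufaf4 and Ndufaf6) and 1 gene annotated as a pseudogene, Ndufs5-ps. Ndufa12 had a value on 10 arrays, Cox6a1 on 6, Atp5g3 on 3, and Ndufs1, Ndufaf3 and Cox6b1 on none, so these 6 genes were left out. Ndufa10 and Ndufb10, with exactly 12 arrays, lay just inside the minimum.

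The animals were CD1 mice, an outbred stock, placed in their atmosphere at postnatal day 2 and kept there for 1, 2 or 4 weeks. The atmosphere was normal air (normoxia), air held at 11% oxygen (constant hypoxia), or air switched every 4 min from 21% to 11% oxygen or back (intermittent hypoxia). There were 9 groups of 2 arrays, A and B. An array compared, by its labels, the kidney cDNA of 1 male in Cy5 and of 1 female in Cy3 from the same atmosphere, with different animals on each array and no dye swap. The measured value was therefore a log2 ratio between 2 animals. A response to oxygen of equal size in both animals cancels in it, and no level of a transcript can be read from it, so the kidney origin of the RNA could not be checked by marker levels. The labels do not settle which channel is the numerator. The words positive and negative refer to the deposited sign and carry no statement about sex: Eif2s3y, a Y-linked gene that should keep 1 sign on all arrays under these labels, was positive on 11 arrays and negative on 7, between -2.17 and 1.64. Whether the ratio had the same orientation on all arrays is therefore not settled. Means over all arrays or within a regimen, and their differences, may mix orientations.

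Before centring, array medians lay between -0.10 and 0.08 in normoxia, between -0.05 and 0.03 in intermittent hypoxia and between -1.16 and -0.19 in constant hypoxia, and a value was present for 41.0% to 67.9%, 42.9% to 65.7% and 81.8% to 88.8% of probes. Every array was centred on its median. The constant hypoxia arrays, all of them and no others, had been deposited on another footing, with lower medians and more values. Constant hypoxia and this footing cannot be told apart. The offset was not uniform: medians were -1.07 and -1.12 at 1 week, -0.19 and -0.24 at 2 weeks, and -1.16 and -0.97 at 4 weeks. Within constant hypoxia, duration and the size of the offset cannot be told apart either. The spread of all features (SD) was 0.24 to 0.49 on 16 arrays, 0.72 on intermittent hypoxia 2 weeks B and 0.87 on constant hypoxia 4 weeks A, and on the latter only 36 of the 53 genes had a value. The labels contradict each other for 2 arrays. Intermittent hypoxia 2 weeks A has a female whose name belongs to 1 week, and for constant hypoxia 4 weeks A one description of the treatment says 2 weeks.

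Oxidative phosphorylation couples the oxidation of NADH and succinate to the making of ATP in the inner mitochondrial membrane. Complex I takes electrons from NADH, complex III passes them from ubiquinol to cytochrome c, complex IV hands them to oxygen, and complex V uses the proton gradient built on the way to make ATP. The kidney relies on this pathway because tubule cells reabsorb solutes with pumps driven by ATP. Most subunits are nuclear genes, and each complex except complex II also holds subunits encoded by mitochondrial DNA, none of which had a symbol on these arrays.

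Promoters of these genes are known for short motifs bound by the regulators NRF1, YY1 and the ETS factor GABP. RefSeq promoter windows (GRCm38.p6, 250 bases before to 50 after the gene start) were matched by symbol for 43 of the 53 genes. The letters GCATGCGC (NRF1), on either strand, occurred in 6 of the 43 (14.0%) against 3.94% of 17492 protein-coding genes. The letters AAGATGGCG (YY1) occurred in 6 (14.0% against 2.14%) and CCGGAAGT (ETS) in 5 (11.6% against 5.69%). The letters ACGTG, the core of hypoxia response elements and also part of the E-box CACGTG, occurred in 9 (20.9% against 23.2%). The 3 windows shown belong to genes whose ratio differed from 0 over all arrays: Atp5h and Uqcr11 share the ETS letters and differ in sign, and Atp5g1 holds ACGTG. Outside its window Uqcr11 also holds ACGTG and the NRF1 letters, so ACGTG does not set Atp5g1 apart. Atp5g1 has another ACGTG match, inside an E-box CACGTG nearer the gene start, which is not shown. Motifs are in capitals, 5′ to 3′ on the gene's strand.
Atp5h, chr11:115419931-115419978, minus strand, ETS letters in reverse: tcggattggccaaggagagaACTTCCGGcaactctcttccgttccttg
Uqcr11, chr10:80406860-80406907, minus strand, ETS letters forward: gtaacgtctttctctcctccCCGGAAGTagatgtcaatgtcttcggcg
Atp5g1, chr11:96075693-96075737, minus strand, ACGTG forward: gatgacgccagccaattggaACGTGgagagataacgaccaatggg
The first 2 carry the same 8 letters, and the mean ratio over all arrays was positive for Atp5h (0.19 ± 0.05, SE) and negative for Uqcr11 (-0.29 ± 0.10). Ndufs3 (-0.24) and Uqcrh (0.26), which also carry the ETS letters, had opposite signs, as did the YY1 carriers Atp5j2 (-0.69) and Ndufs4 (0.18). A match of letters is a description and shows no binding.

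**Figure D1:**
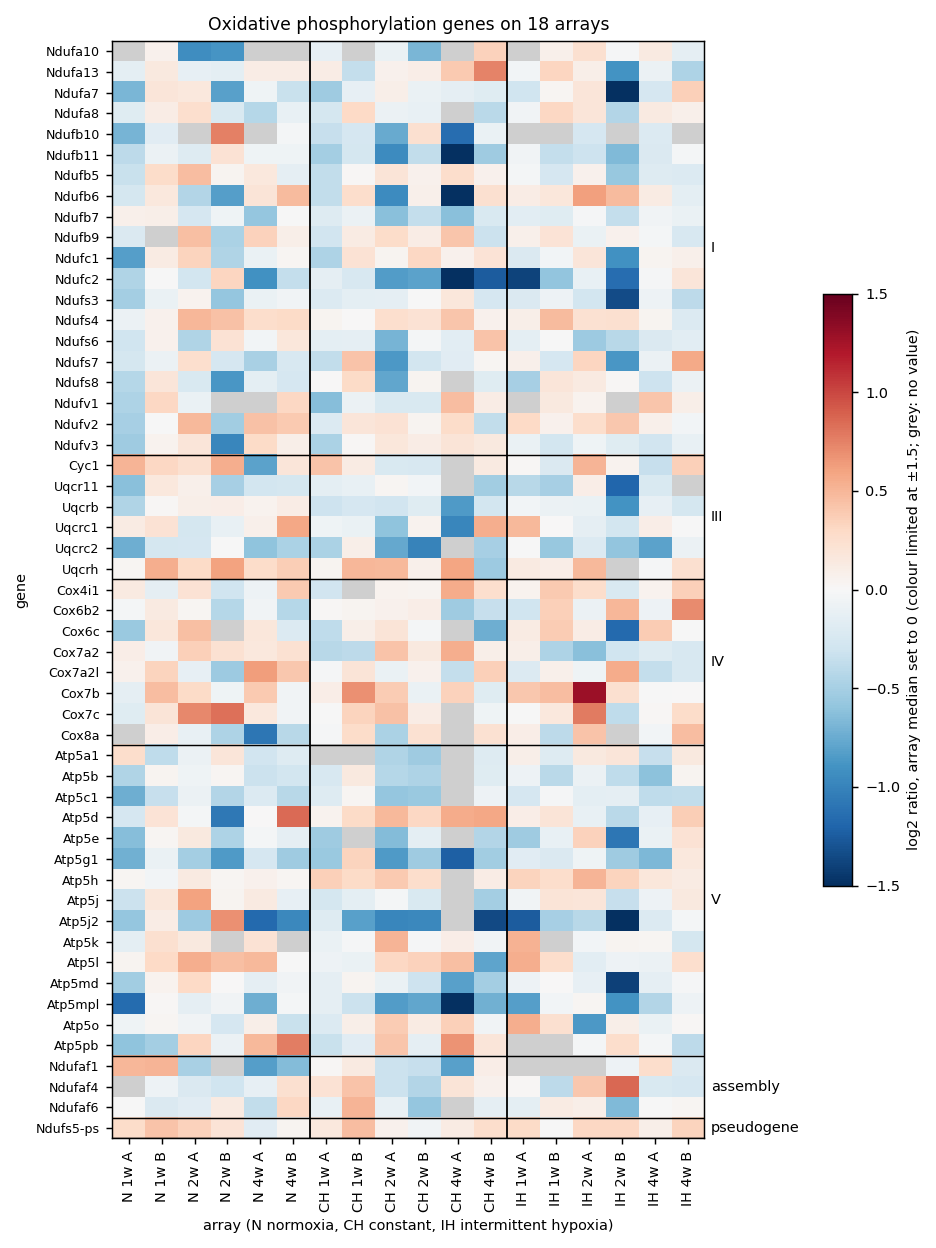
Centred log2 ratio of each of the 53 genes (rows, grouped by complex) on each of the 18 arrays (columns, in the order normoxia, constant hypoxia, intermittent hypoxia); red is positive, blue negative, grey no value. Atp5j2 is negative on 15 of 17 arrays, Ndufc2 on 16 of 18 and Uqcrc2 on 16 of 17, and Atp5h is positive on 16 of 17.

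The first question was whether the mean ratio of single subunits differed from 0 whatever the atmosphere. Without a dye swap, a difference between the paired animals cannot be told apart from a difference between the dyes in such a mean. Averaged over the 9 groups, 18 of the 48 genes with an estimate differed from 0 (limma, Benjamini-Hochberg adjusted p under 0.05), 5 positive and 13 negative. The background was as high: 37.7% of all 6150 features tested were called against 37.5% of these genes, so calls were no more frequent among them than elsewhere on the array. The median was -0.07 over the 48 genes and -0.01 over all features. Complex III had 4 of 6 genes called, complex V 7 of 13, complex I 5 of 18 and complex IV 1 of 8. Complexes I, III and V each held called genes of both signs. Of the positive genes there, Ndufs4 (I) and Uqcrh (III) lost their calls once a running median along the probe numbers was removed (described below), and Atp5h (V) kept its call. With the values as deposited, without centring, 5 of the 18 turned sign (Atp5h, Cox7b, Ndufs4, Ndufs5-ps and Uqcrh, all the positive ones), so the positive calls over all arrays hold relative to the array median only. The constant hypoxia arrays enter that uncentred mean with medians from -1.16 to -0.19. Medians lay from -0.10 to 0.08 in normoxia and from -0.05 to 0.03 in intermittent hypoxia. Of the 18, 13 stayed under the threshold in every fit that left out 1 array, and Uqcrc2, Atp5j2, Ndufc2, Atp5g1 and Atp5mpl did so under every alternative run.

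In complex V, which has a catalytic head, a central stalk, a membrane ring and a peripheral stalk, 6 of the 7 called genes were negative. Atp5j2, the f subunit of the membrane part, ranged from -1.17 to 0.69 in normoxia (median -0.57), from -1.36 to -0.20 on 5 constant hypoxia arrays (median -0.96) and from -1.86 to -0.03 in intermittent hypoxia (median -0.46). It was negative on 15 of 17 arrays, the positive ones being normoxia 1 week B and 2 weeks B, and its mean of -0.69 ± 0.12 (SE, adjusted p = 0.00114) was the lowest of the 48. Atp5g1, one of several genes for the c subunit of the ring, was negative on 16 of 18 arrays. Its range was -0.84 to -0.10 in normoxia, -1.23 to 0.34 in constant hypoxia and -0.68 to 0.15 in intermittent hypoxia, and its mean was -0.44 ± 0.09 (adjusted p = 0.00209). Atp5c1, the gamma subunit that turns inside the head, was negative on all 6 normoxia arrays, from -0.73 to -0.09. Its mean over all arrays was -0.28 ± 0.05 (adjusted p = 0.00246). Its 2 probes differed, with means of -0.14 and -0.47, and only the second was negative on every array where it had a value. Atp5mpl, a small proteolipid of the membrane part, was negative on 16 of 18 arrays with a mean of -0.55 ± 0.13 (adjusted p = 0.00527), and the catalytic beta subunit Atp5b (-0.22 ± 0.07, adjusted p = 0.0208) and the small subunit Atp5md (-0.22 ± 0.08, adjusted p = 0.0393) were also called. The call of Atp5md ended in 14 of the 18 fits that left out 1 array.

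Atp5h, the d subunit of the peripheral stalk, was the exception in complex V. Its 6 normoxia values lay between -0.04 and 0.14, its 5 constant hypoxia values between 0.11 and 0.39, and its 6 intermittent hypoxia values between 0.13 and 0.51. The spread between arrays of a group, 0.07 (SD), was small, and the mean of 0.19 ± 0.05 had an adjusted p of 0.0071. The normoxia values thus sat near 0, and only the highest of them, 0.14 on 2 weeks A, reached into the range of either hypoxia regimen. Its 2 probes overlapped more. The first read up to 0.22 in normoxia and down to 0.13 in intermittent hypoxia. The second read up to 0.18 in normoxia and down to -0.02 in constant and 0.02 in intermittent hypoxia. The share of all features that separate as far was not counted. Among the other peripheral stalk genes, Atp5j had a mean of -0.06 ± 0.07 and Atp5o of 0.00 ± 0.07, while Atp5pb lacked an estimate over all groups. With 1 probe in place of the mean of its 2, Atp5h was no longer called (adjusted p = 0.103).

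The called genes of complex III had both signs. Once a running median along the probe numbers was removed (described below), Uqcrh, the positive one, and Uqcrb lost their calls. Uqcrc2 and Uqcr11, both negative, kept theirs. Uqcrc2, a core protein of the matrix side, was negative on 16 of 17 arrays, with medians of -0.37 in normoxia, -0.49 in constant hypoxia and -0.39 in intermittent hypoxia and a lowest value of -1.01 on constant hypoxia 2 weeks B. Its mean was -0.43 ± 0.08 (adjusted p = 0.00141), and both of its probes gave it, at -0.47 and -0.39. Its partner core protein Uqcrc1 had a mean of -0.02 ± 0.09. Uqcrh, the hinge protein at the cytochrome c docking site, was positive on 15 of 17 arrays, from 0.03 to 0.61 in normoxia, and its mean was 0.26 ± 0.08 (adjusted p = 0.0256). Uqcr11, a small subunit, ranged from -1.19 to 0.15 with a mean of -0.29 ± 0.10 (adjusted p = 0.0363), and that call ended in 10 of its 16 fits without 1 array. Cyc1, the haem-bearing cytochrome c1 that passes electrons to cytochrome c, was at 0.09 ± 0.08 and did not pass the test.

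Uqcrb, the ubiquinone-binding protein of complex III, was called at -0.21 ± 0.06 (adjusted p = 0.0205), but its 2 probes disagreed. Their means were -0.03 and -0.39, and on constant hypoxia 4 weeks A they read 0.36 and -2.07. The second lies near the end of the probe numbering, where all features of that array were low.

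In complex I the called genes came from different parts of the enzyme. Ndufc2, an accessory subunit of the membrane arm, ranged from -0.91 to 0.32 in normoxia, from -1.92 to -0.13 in constant hypoxia and from -1.39 to 0.18 in intermittent hypoxia. It was negative on 16 of 18 arrays with a mean of -0.55 ± 0.09 and the smallest adjusted p of the 48 genes (0.000685). Ndufb11, another membrane arm subunit, was negative on 17 of 18 arrays (-0.42 ± 0.11, adjusted p = 0.0105) and Ndufb7 on 16 of 18 (-0.21 ± 0.06, adjusted p = 0.0112). The 2 probes of Ndufb7 had means of -0.28 and -0.13, and of -0.19 and 0.006 with a running median along the probe numbers removed. Of the core subunits that carry electrons or hold the peripheral arm together, Ndufs3 was called at -0.24 ± 0.08 (adjusted p = 0.025). Ndufs7 (-0.14 ± 0.09), Ndufs8 (-0.17 ± 0.08), Ndufv1 (0.03 ± 0.09) and Ndufv2 (0.08 ± 0.07) did not pass. Ndufs4, an accessory subunit of the peripheral arm, was the positive one, above 0 on 16 of 18 arrays with a mean of 0.18 ± 0.05 (adjusted p = 0.0105). The pseudogene probe Ndufs5-ps was positive on 15 of 18 arrays (0.19 ± 0.05, adjusted p = 0.00818), and since its sequence resembles that of Ndufs5 its source is uncertain.

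In complex IV the accessory subunit Cox7b was the 1 called gene, at 0.25 ± 0.08 (adjusted p = 0.0284), with values from -0.18 to 1.29 and 12 of 18 positive. Its highest value, on intermittent hypoxia 2 weeks A, stood above the next, 0.68 on constant hypoxia 1 week B, and the call ended in 7 of 18 fits without 1 array. The isoform genes did not pass: Cox4i1, the widespread isoform of the regulatory subunit 4, was at 0.08 ± 0.07, Cox7a2 at -0.02 ± 0.06, Cox8a at -0.03 ± 0.09 and Cox6b2, known as the testis isoform, at -0.02 ± 0.07. The 3 probes of Cox4i1 disagreed, with means of 0.28, -0.06 and 0.03. Cox7a2l, which helps join complexes into supercomplexes, was at 0.04 ± 0.07. Cox6c had the lowest mean of the complex, -0.07 ± 0.10.

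**Figure D2:**
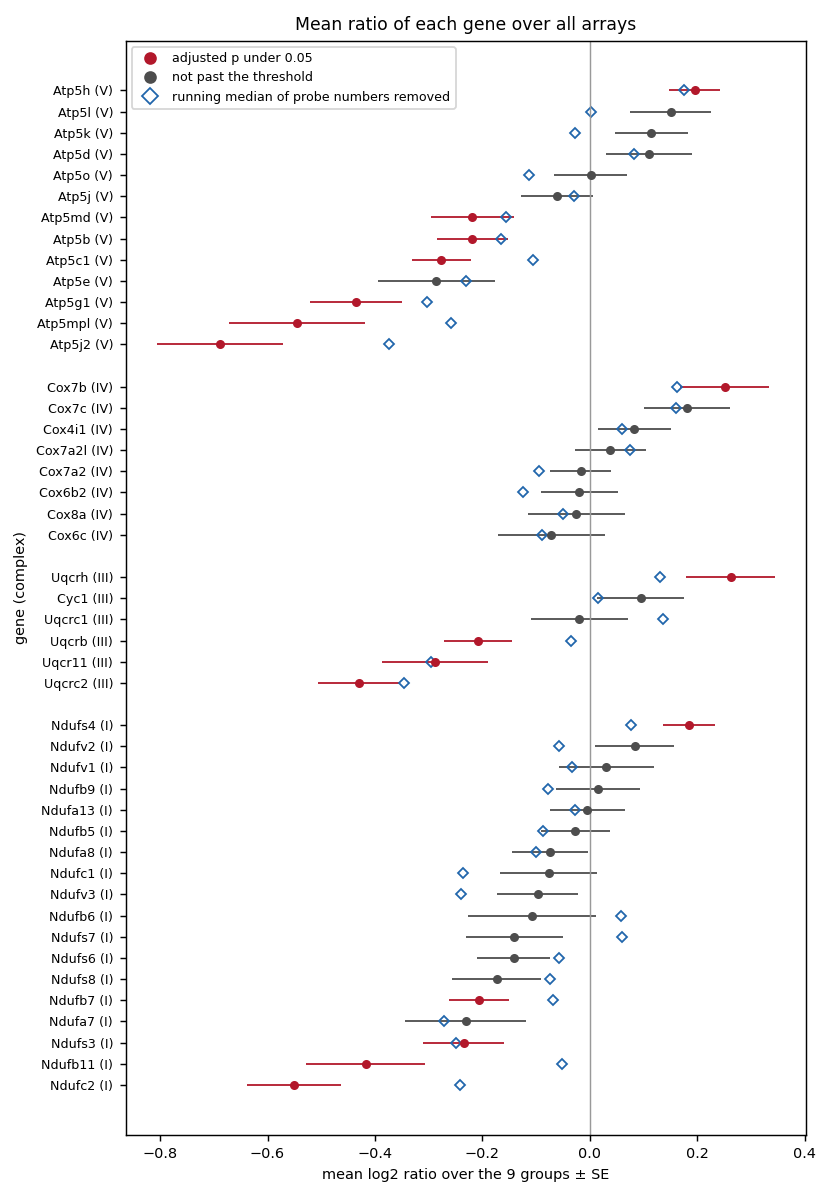
Mean log2 ratio over the 9 groups with its SE for each subunit gene with an estimate (circles, red where the adjusted p was under 0.05), by complex; open diamonds give the mean after a running median along the probe numbers was removed. Atp5j2 at -0.69 and Ndufc2 at -0.55 lie farthest to the left, Uqcrh at 0.26 farthest to the right, and the diamonds of Ndufb11 and Uqcrb lie close to 0.

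These values also moved with the place of a probe in the deposited numbering. At the end of the numbering, where 15 of the 68 member probes lie, all features of constant hypoxia 4 weeks A had a median of -1.86 against 0.07 before it. The 12 of these member probes with a value on that array were all negative, with a median of -1.66 against 0.34 for the 30 others. Ndufb11 read -2.68, Atp5mpl -2.70 and Ndufc2 -1.92 on that array, where the local medians of all features were -2.29, -2.26 and -1.60. On constant hypoxia 2 weeks A all 15 late member probes were negative, with a median of -0.77 against 0.07 for the early ones. The pattern was not confined to constant hypoxia. On normoxia 2 weeks A 12 of 13 late member probes were negative, with a median of -0.26 against 0.13, whereas on normoxia 1 week B 5 of 14 were. Removing a running median over neighbouring probe numbers on each array left 13 of the 48 genes called, against 27.8% of all features, and 11 of them were among the 18. Uqcrc2 (-0.35, adjusted p = 0.00087), Atp5j2 (-0.37), Atp5g1 (-0.30), Atp5mpl (-0.26), Ndufc2 (-0.24), Ndufs3 (-0.25), Uqcr11 (-0.30), Atp5b (-0.17), Atp5md (-0.16), Atp5h (0.17) and Ndufs5-ps (0.14) kept their calls. Ndufb11 (-0.05), Uqcrb (-0.03), Atp5c1 (-0.11), Ndufb7 (-0.07), Ndufs4 (0.08), Uqcrh (0.13) and Cox7b (0.16) lost theirs. Ndufv3, a small flavoprotein-fraction subunit of complex I, was called at -0.24 (adjusted p = 0.0059) and Ndufa7, an accessory subunit of the same complex, at -0.27 (adjusted p = 0.0405) only after this step.

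**Figure D3:**
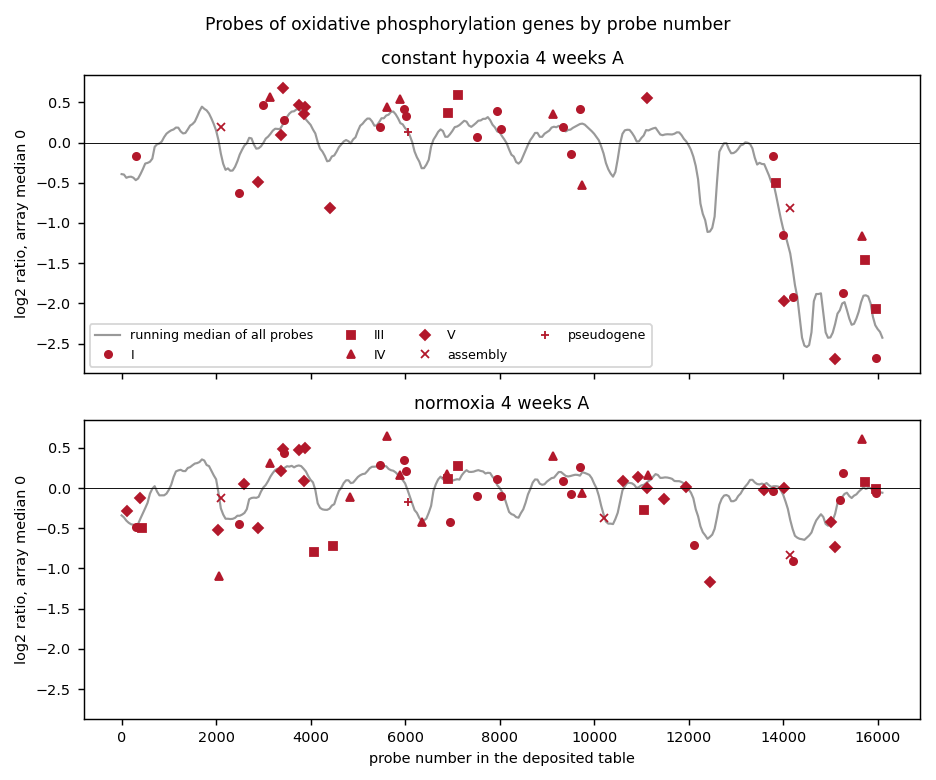
Centred log2 ratio of the member probes (red symbols by complex) against probe number on constant hypoxia 4 weeks A and normoxia 4 weeks A, with the running median of all probes as a grey line. At the highest probe numbers the line and the member probes of the first array drop together, with Ndufb11 at -2.68. On the second array the drop was smaller: all features there had a median of -0.15, and 10 of 13 member probes were negative.

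The median difference between 2 probes of a gene over arrays was 0.15 for Uqcrc2 and 0.07 for Atp5l. Across the 17 probe pairs of members, 6 had a median difference over 0.3, the widest for Atp5g1 (0.49) and Atp5md (0.45). Atp5g1, at -0.39 and -0.44 for its 2 probes, kept its sign in both means all the same. The second probe lies at the end of the numbering. With the running median removed the means were -0.39 and -0.09.

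Within a single regimen, Atp5c1 was the 1 gene called in normoxia, at -0.37 ± 0.09 (adjusted p = 0.0437), 1 of 52 genes against 3.4% of all 7286 features, and 7 of 52 (13.5%) were under an unadjusted p of 0.05 against 21.9% of all features. In constant hypoxia 8 of 52 (15.4%) were called against 15.2% of 8027 features, all negative: Ndufc2 (-0.86 ± 0.15), Ndufb11 (-0.88 ± 0.19), Ndufb7 (-0.35 ± 0.10), Uqcrc2 (-0.53 ± 0.15), Uqcrb (-0.36 ± 0.11), Atp5j2 (-0.95 ± 0.22), Atp5g1 (-0.56 ± 0.15) and Atp5mpl (-0.92 ± 0.22), with adjusted p from 0.00861 for Ndufc2 to 0.0409 for Uqcrb. Negative calls also outnumbered positive ones over all features there, 894 to 327. In intermittent hypoxia Atp5h (0.29 ± 0.08, adjusted p = 0.0426) and Atp5j2 (-0.71 ± 0.19, adjusted p = 0.0449) were called, 2 of 50 against 7.18% of 6726 features. With the running median removed, limma called 0 of 52 genes in normoxia (9 unadjusted) against 6.88% of all features, and 0 of 52 in constant hypoxia (15 unadjusted) against 4.56%. In intermittent hypoxia Atp5h (0.25), Cox7a2 (-0.29, adjusted p = 0.0275) and Ndufv3 (-0.33, adjusted p = 0.0416) were then called, 3 of 50 genes (6%) against 10.1% of all features. The constant hypoxia count also moved with single arrays: it was 3 without 1 week A, 0 without 1 week B or 2 weeks A, 1 without 2 weeks B, 4 without 4 weeks A and 11 without 4 weeks B, and the share of all features called was, in that order, 5.92%, 0.151%, 0.724%, 1.22%, 6.49% and 24.1%. The normoxia call of Atp5c1 was lost in 12 of 18 such fits and the intermittent hypoxia count ran from 0 to 11, the last being 11 of 47 genes (23.4%) without intermittent hypoxia 2 weeks A, against 20.1% of all features.

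The main comparison asked whether the ratio depended on oxygen. No gene of the set passed in constant hypoxia minus normoxia (0 of 51, 0% of 7153 features), and 5 of 51 (9.8%) were under an unadjusted p of 0.05 against 8.26% of all features. The median difference was -0.06 over the genes and -0.03 over all features. Ndufb11 had the smallest p, at -0.79 ± 0.27 (adjusted p = 0.553). Its normoxia values lay between -0.39 and 0.22 and its constant hypoxia values between -2.68 and -0.27, so the groups overlapped, and the difference was -0.38 with the running median removed. Ndufc2 followed at -0.58 ± 0.21 (adjusted p = 0.577), and -0.15 with the same step. In complex III all genes but Uqcr11 (0.02 ± 0.23) had a negative difference, led by Uqcrb at -0.35 ± 0.16 (adjusted p = 0.595). Uqcrb was positive on 5 of 6 normoxia arrays, at up to 0.11, and negative on all 6 constant hypoxia arrays, between -0.85 and -0.18, the groups overlapping through normoxia 1 week A at -0.45. Of its 2 probes only the one near the end of the numbering was negative on all 6 constant hypoxia arrays, the other being positive on 4 of them, and the difference of Uqcrb was -0.16 with the running median removed. In complex IV Cox8a (0.39 ± 0.22) and Cox6c (-0.35 ± 0.26) led the 2 directions, and in complex V Atp5d, the delta subunit of the central stalk (0.43 ± 0.20), and Atp5j (-0.37 ± 0.17) had the smallest p, both with an adjusted p of 0.595. Atp5d was positive on all 6 constant hypoxia arrays, from 0.05 to 0.58, inside the normoxia range of -1.07 to 0.85. Ndufa13, an accessory subunit of complex I, had the positive difference with the smallest p there (0.18 ± 0.17). The count moved with constant hypoxia 4 weeks B: without it 4 of 36 genes with an estimate (11.1%) were called against 8.92% of all features, Ndufb11 (-1.14, adjusted p = 0.000967), Atp5mpl (-0.90, adjusted p = 0.0223), Ndufb6 (-0.67, adjusted p = 0.0397) and Uqcrc1 (-0.55, adjusted p = 0.0452). All 4 have a probe at the end of the numbering, and constant hypoxia 4 weeks A, where such probes were low, was then the 1 array of its group.

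Intermittent hypoxia minus normoxia, which shares the normoxia arrays with the comparison above, also gave no call (0 of 49 genes, 0% of 6281 features), and 2 of 49 genes (4.08%) were under an unadjusted p of 0.05 against 4.71% of all features. The median difference was -0.03 against 0.01 over all features. Cox7a2, the form of subunit 7a found in most tissues, had the smallest p at -0.46 ± 0.14 (adjusted p = 0.852). It was positive on 5 of 6 normoxia arrays, between -0.05 and 0.36, and negative on 5 of 6 intermittent hypoxia arrays, between -0.63 and 0.08, with medians of 0.19 and -0.27, and the groups overlapped. In constant hypoxia its median was 0.12 and its difference from normoxia -0.10 ± 0.14. Atp5h differed by 0.25 ± 0.11 in intermittent and 0.21 ± 0.12 in constant hypoxia. Cox8a differed by 0.48 ± 0.22 and 0.39 ± 0.22, its median moving from -0.42 on 5 normoxia arrays to 0.10 and 0.22. The differences of both genes rest on the same normoxia arrays in both regimens, and none passed the test. In complex I Ndufb5 (-0.27 ± 0.16) and Ndufb6 (0.34 ± 0.29) led, in complex III Uqcrb (-0.24 ± 0.16) and Uqcrc2 (0.01 ± 0.18), and in complex V Atp5md (-0.23 ± 0.19) was the most negative by p.

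Intermittent hypoxia minus constant hypoxia gave no call either (0 of 49 genes, 0% of 6593 features), and 3 of 49 genes (6.12%) were under an unadjusted p of 0.05 against 12.4% of all features. Its median was 0.05 over the genes and 0.05 over all features. Without constant hypoxia 4 weeks B, 3 of 33 genes (9.09%) were called against 11.7% of all features: Ndufb11, Atp5mpl and Ndufb6.

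**Figure D4:**
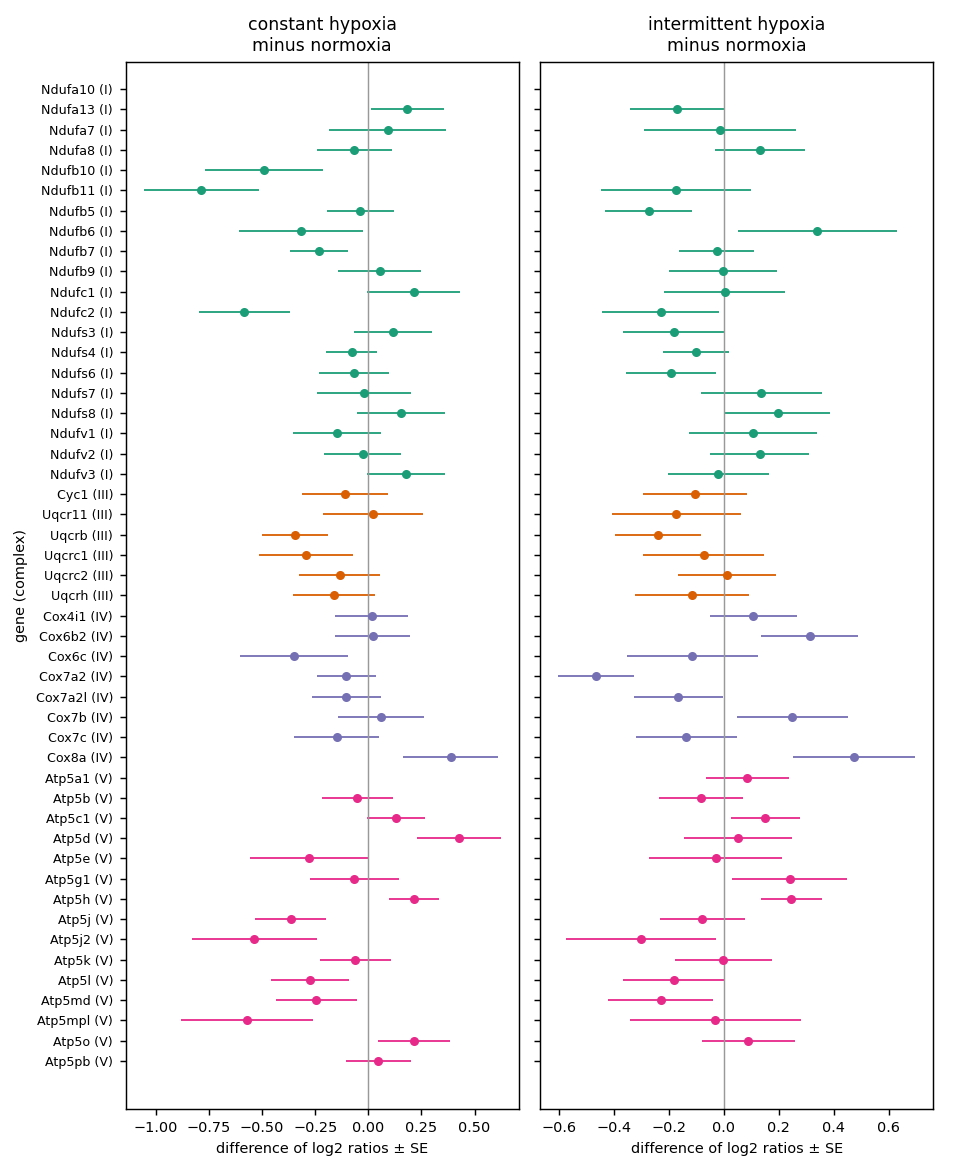
Difference of the mean log2 ratio from normoxia with its SE for each subunit gene, coloured by complex, in constant hypoxia (left) and intermittent hypoxia (right). Ndufb11 at -0.79 and Ndufc2 at -0.58 reach farthest on the left and Cox8a at 0.48 and Cox7a2 at -0.46 on the right; no gene passed the adjusted threshold.

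By complex, the median gene of complex IV stood above that of complex I on 16 of 18 arrays, 4 of 6 in normoxia and 6 of 6 in each hypoxia regimen, and above that of complex V on 17 and complex III on 15. With the running median removed these counts were 15, 16 and 13. The array medians averaged 0.07 for complex IV, -0.08 for complex I, -0.09 for complex V and -0.14 for complex III, beside an SD between arrays of a group of 0.21, 0.20, 0.18 and 0.22. With the running median removed they averaged 0.01, -0.09, -0.09 and -0.04, so complex III was no longer the lowest and complex IV stood near 0. Each complex shares its genes across arrays, so these orders describe fixed sets of probes.

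Complex I medians ran from -0.39 to 0.07 in normoxia, -0.28 to 0.07 in constant and -0.42 to 0.08 in intermittent hypoxia. Complex V medians ran from -0.45 to 0.03, from -0.23 to 0.23 and from -0.35 to 0.04. Complex IV medians ran from -0.30 to 0.25, from -0.02 to 0.35 and from -0.23 to 0.25. Complex III medians ran from -0.21 to 0.18 in normoxia and lay below 0 on all 6 constant hypoxia arrays, from -0.85 to -0.01. The mean difference from normoxia was -0.31 ± 0.13 for constant hypoxia and -0.18 ± 0.13 for intermittent hypoxia (error from the SD between arrays), against 0.04 and 0.01 in complex I. At 4 weeks the constant hypoxia difference of complex III was -0.64 ± 0.22, resting on 3 genes on array A and 6 on array B. With the running median removed it was -0.05 at 4 weeks, -0.08 over all durations and -0.12 for intermittent hypoxia, and with a single probe per gene the difference over all durations was -0.06 in constant hypoxia. On constant hypoxia 4 weeks A the 3 genes were Uqcrc1 at -0.98, Uqcrb at -0.85 and Uqcrh at 0.59, the first pair with late probes.

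**Figure D5:**
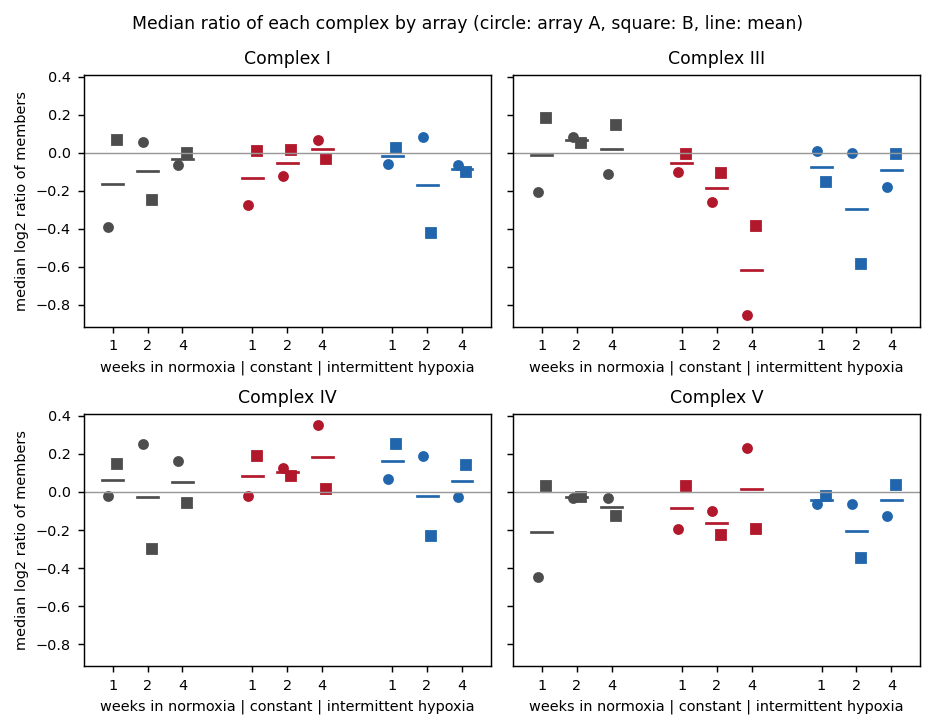
Median centred log2 ratio of the genes of complexes I, III, IV and V on each array (circle A, square B, line the mean of both) at 1, 2 and 4 weeks of normoxia (grey), constant hypoxia (red) and intermittent hypoxia (blue). Complex III in constant hypoxia drops to -0.85 at 4 weeks on array A.

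Duration was compared as 4 weeks minus 1 week within each regimen, with 2 arrays on each side. No gene of the set passed in normoxia (0% of 7967 features called), constant hypoxia (0% of 8028) or intermittent hypoxia (0% of 7854), with 3 of 52, 6 of 52 and 1 of 50 genes under an unadjusted p of 0.05 against 9.63%, 9.59% and 3.71% of all features. In normoxia the smallest p values belonged to Atp5pb, the b subunit of the peripheral stalk, which went from -0.61 and -0.50 at 1 week to 0.48 and 0.76 at 4 weeks (1.18 ± 0.27, adjusted p = 0.243), and to the complex I assembly factor Ndufaf1, which went from 0.50 and 0.51 to -0.83 and -0.65 (-1.25 ± 0.30, adjusted p = 0.318). The 2 ages did not overlap for either gene, but both genes were picked by their p. With 2 arrays on each side such separation can arise by chance, and its share over all features was not counted. In constant hypoxia Ndufc2 went from -0.13 and -0.24 to -1.92 and -1.25 (-1.39 ± 0.37, adjusted p = 0.467), a difference of -0.53 with the running median removed. Cox7a2 went from -0.41 and -0.39 to 0.54 and 0.09 (0.72 ± 0.24, adjusted p = 0.467). In intermittent hypoxia Ndufc2 had a difference of the opposite sign, from -1.39 and -0.59 to -0.01 and 0.18 (1.07 ± 0.37, adjusted p = 1). The change with duration was not shown to differ from that in normoxia for any gene, in constant hypoxia (0 of 51 genes, 0% of 7833 features; 1 gene unadjusted, 1.96% against 4.05% of all features) or in intermittent hypoxia (0 of 49, 0% of 7676; 4 genes unadjusted, 8.16% against 9.18%). Without constant hypoxia 4 weeks B, 5 of 36 genes (13.9%) were called for duration in constant hypoxia (Ndufb11, Atp5mpl, Ndufb6, Ndufc2 and Cox7a2) against 13.3% of all features. For its difference from normoxia 3 of 36 (8.33%) were called (Ndufb11, Atp5mpl and Ndufb6) against 7.98%.

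Within single durations, constant hypoxia minus normoxia called no gene at 1 week (0.0251% of 7974 features), 2 weeks (0.0403% of 7437) or 4 weeks (0.0125% of 7982), with 0 of 52, 4 of 53 and 6 of 52 genes under an unadjusted p of 0.05 against 4.21%, 9.95% and 7.08% of all features. Atp5d led at 2 weeks, at 0.48 and 0.31 in constant hypoxia against -0.03 and -1.07 in normoxia (0.95 ± 0.34, adjusted p = 0.359), and Ndufb11 at 4 weeks (-1.54 ± 0.47, adjusted p = 0.692). Without constant hypoxia 4 weeks B, the 4 genes named above for constant hypoxia minus normoxia were called at 4 weeks, 11.1% of the 36 tested against 11.6% of all features. Intermittent hypoxia minus normoxia called none at 1 week (0% of 7966 features), 2 weeks (0.182% of 6595) or 4 weeks (0% of 7863), with 0 of 50, 7 of 53 (13.2%) and 4 of 52 genes (7.69%) unadjusted against 4%, 13.5% and 9.11% of all features. At 2 weeks Ndufaf4, a complex I assembly factor, stood at 0.40 and 0.86 against -0.21 and -0.30 (0.89 ± 0.24, adjusted p = 0.138), and Ndufa10, an accessory subunit of complex I, at 0.24 and -0.02 against -0.93 and -0.88 (1.02 ± 0.27, adjusted p = 0.168). Ndufa10 passed with the running median removed (1.12, adjusted p = 0.0427), 1 of 53 genes against 0.971% of all features. Without intermittent hypoxia 2 weeks A, where the labels conflict, 7 of 49 genes (14.3%) were called at 2 weeks (Atp5j2, Atp5md, Cox6c, Cox7c, Ndufaf4, Ndufs3 and Uqcrb) against 13.8% of all features, with intermittent hypoxia 2 weeks B, of wide spread, as the 1 array left in its group. At 4 weeks Cox8a stood at -0.04 and 0.46 against -1.09 and -0.42 (0.96 ± 0.33, adjusted p = 0.452).

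The median SD over arrays was 0.34 for these genes and 0.32 for all features tested, and within an array the genes spread more widely than all features on 5 of 18 arrays. Atp5h (SD 0.16), Ndufs5-ps (0.17) and Ndufs4 (0.20) varied least, while Atp5mpl (0.66), Ndufb11 (0.63) and Atp5j2 (0.62) varied most. With the running median removed the median SD was 0.28 over these genes and 0.26 over all features, Atp5mpl (0.28) and Ndufb11 (0.27) lay near that median, and Ndufa10 (0.44), Atp5j2 (0.44) and Ndufa7 (0.41) varied most.

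Other genes of the pathway came from fixed lists. Of complex II and cytochrome c, 4 of 5 genes were measured. Sdha, the flavoprotein of complex II, was called over all arrays (-0.45 ± 0.10, adjusted p = 0.00419; -0.23 and still called with the running median removed), and Sdhd, a membrane anchor, had a difference of 0.59 ± 0.16 in constant hypoxia (adjusted p = 0.489). Of 33 assembly factors 11 were measured and 4 of 10 with an estimate were called over all arrays, beside 37.7% of all features, all negative, led by the membrane insertase Oxa1l (-0.39 ± 0.05, adjusted p = 0.000288). Oxa1l kept its call with the running median removed (-0.29), while Acad9 (-0.14), Cox14 (-0.11) and Lrpprc (-0.11) lost theirs, and Atpaf2 (0.19, adjusted p = 0.0137) was called. Of 9 carriers and channels 5 were measured, and the outer membrane channel Vdac1 (-0.45 ± 0.06, adjusted p = 0.000298) and the phosphate carrier Slc25a3 (-0.24 ± 0.07, adjusted p = 0.0115) were called, beside the same 37.7% of all features. Vdac1 kept its call after that step (-0.30), Slc25a3 lost it (-0.05, adjusted p = 0.565), and Vdac2, a related channel, was called at -0.20 (adjusted p = 0.0216). Of 17 regulators 9 were measured and 3 were called over all arrays, again beside 37.7% of all features. Tfam (0.33 ± 0.07, adjusted p = 0.0091) and Tfb1m (0.30 ± 0.07, adjusted p = 0.011), which act on mitochondrial DNA and ribosomes, were positive and Tfb2m (-0.43 ± 0.13, adjusted p = 0.0173), which starts mitochondrial transcription, was negative. All 3 calls ended with the running median removed, at 0.13 (adjusted p = 0.123), 0.17 (adjusted p = 0.075) and -0.07 (adjusted p = 0.282), while Hif1a (0.24, adjusted p = 0.0126) and Bnip3 (-0.22, adjusted p = 0.0314) were then called. No gene of these 4 lists passed in constant or intermittent hypoxia minus normoxia. Pdk1, a kinase induced by hypoxia that holds back pyruvate oxidation, differed by 0.44 ± 0.19 and 0.59 ± 0.19 (adjusted p = 0.595 and 0.915). All 5 carriers had a positive difference in constant hypoxia (median 0.22), beside 44.5% of all features. The smallest, Vdac3, was at 0.08 ± 0.17, and at 0.004 with the running median removed.

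Markers of other cell types were measured for few genes: 3 of 13 for proximal tubule, 1 of 7 for thick limb and distal tubule, 1 of 6 for collecting duct, 2 of 5 for podocytes, 3 of 6 for endothelium, 2 of 9 for erythroid cells, 2 of 6 for immune cells, 5 of 5 for stroma and 4 of 5 for proliferation. None of 8 brown fat and muscle or 5 adrenal genes had a value. Over all arrays, where the subunit calls were made, 37.7% of all features were called, 1100 positive and 1216 negative. Of these markers 6 were called there, all negative: Hbb-b1 of erythroid cells (-0.82 ± 0.16, adjusted p = 0.00248), Slc4a1 of erythroid and collecting duct cells (-0.17 ± 0.05), C1qa of immune cells (-0.35 ± 0.06, adjusted p = 0.00122), Col1a1 (-0.21 ± 0.06) and Col1a2 (-0.28 ± 0.08) of stroma, and Top2a of proliferating cells (-0.24 ± 0.08). The other genes of these lists were not called, and several were positive. Lyz2 of immune cells was at 0.06. In stroma Col3a1 was at -0.04, Dcn at 0.05 and Pdgfrb at -0.08. Among proliferation genes Cdk1 was at 0.04 and Pcna at 0.13, and Mki67 had no estimate. No gene of the proximal tubule, thick limb and distal, podocyte or endothelium lists was called, so the calls do not describe whole lists. After removal of the running median C1qa (-0.23) and Col1a1 (-0.23) kept their calls and Hbb-b1 was at -0.27 (adjusted p = 0.0544). The part of these cell types in the subunit values over all arrays was not tested. No marker passed in either comparison with normoxia. The erythroid genes had a median of -0.48 in constant hypoxia minus normoxia, with Hbb-b1 at -0.87 ± 0.41 and at -0.25 with the running median removed, beside the negative differences of Ndufb11, Ndufc2 and complex III. Their part in those differences was not tested. In whole kidney RNA, fewer cells of a type and less RNA per cell cannot be told apart.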

How the data were processed

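Each probe has 1 deposited log2 ratio per array, of kidney RNA extracted in Trizol and labelled by direct dye incorporation, per the labels' protocols. For background correction, spot filters, normalization and ratio direction, the method was not given in the sources used here. Arrays were grouped by title. Symbols came from the platform annotation (9604 of 16128 probes with 1 symbol, 213 with several, 6311 with none), and all 53 genes were found in RefSeq. The members and lists were chosen with earlier results of these data known.

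Arrays were centred on their median over the 8163 features and probes of a gene averaged. The model was limma's (version 3.58.1, R 4.3.3; 9 group means, eBayes, prior degrees of freedom 5.37). The 18 contrasts were tested two-sided with Benjamini-Hochberg adjustment over all features and a threshold of 0.05. A regimen is the mean of its 3 durations. The median SE over the genes was 0.08 over all arrays, 0.19 for constant hypoxia minus normoxia and 0.32 for 4 weeks minus 1 week in normoxia. The number of arrays limits the precision. Promoters were searched in Python 3.11.15. The fit was tested on simulated data.

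Genes were named if past the threshold in any contrast, if they had the smallest p of their complex in either direction (all arrays and both differences from normoxia), as isoform or core subunits, or as the 3 varying most or least. Other members were named after their values were seen. Alternatives changed centring, scaling, filter, probes, probe-number trend, variance estimate, samples and the array letter as a replicate block. Letters were not used to pair arrays in the main fit. Over 36 pairs of groups the correlation of A deviations had a median of 0.0004. It ran from -0.35 to 0.46 and was over 0.1 in 9. Structure shared by some arrays of the same letter was not tested further.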

Additional observations from a re-analysis of the deposited data

Results flagged for a closer look

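Of 63 sets of arrays checked for an array far from the others, 11 had one. The check has a rate of about 1 in 20 for independent sets chosen blind, and these were neither. The medians overlap with each other and with the genes, the genes were picked with results known, and each set mixed durations. The share of all features with such an array was not counted, so no excess can be read from the 11. Normoxia 1 week A was low for the complex V median (-0.449) and for Uqcrb (-0.447). Constant hypoxia 4 weeks A was low for Uqcrb (-0.854), Atp5mpl (-2.70) and Ndufb11 (-2.68). Intermittent hypoxia 2 weeks B was low for the complex I median (-0.424), the complex III median (-0.587), the median of all members (-0.345), Uqcrb (-0.891) and Ndufs3 (-1.34). Intermittent hypoxia 2 weeks A was high for Cox7b (1.29). The intermittent hypoxia array named for 5 of these values and the constant hypoxia array named for 3 are those with the widest spread over all features, and the part of that spread in these values was not tested.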

How the results depend on the processing

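Counts are of the genes called; unlisted settings kept the count within 1.5 times. Percentages in brackets are the share of all features called under the same setting. Without centring, counts were 38 over all arrays (70.2%), 0 in normoxia (2.57%), 52 in constant (99%) and 0 in intermittent hypoxia (5.19%), 49 for constant hypoxia minus normoxia (97%), 47 for intermittent minus constant (94.3%), 39 at 1 week (80.3%) and 47 at 4 weeks (89.7%) of constant hypoxia minus normoxia, whose complex medians were -0.76 (I), -1.11 (III), -0.71 (IV) and -0.77 (V); the other footing of the constant hypoxia arrays then enters every such value. Signs also turned there. For constant hypoxia minus normoxia they did for Atp5c1 (-0.64), Atp5h (-0.55), Cox4i1 (-0.78), Cox6b2 (-0.78), Ndufa13 (-0.62), Ndufs3 (-0.68), Ndufs8 (-0.61) and Uqcr11 (-0.74), and over all arrays for Atp5h (-0.062), Cox4i1 (-0.18), Cox7a2l (-0.23), Cox7b (-0.017), Ndufs4 (-0.083), Ndufs5-ps (-0.074), Ndufv1 (-0.23), Ndufv2 (-0.18) and Uqcrh (-0.0013). In normoxia the count was 0 when arrays were centred on complete features (4.14%), with genes valued on all arrays (2.59%), 1 probe per gene (3.42%), the running median removed (6.88%), only the groups compared (2.59%), or the replicate block (2.29%), and 5 without either added pair of arrays (11.7%). In constant hypoxia it was 4 with 1 probe per gene (16.8%; Uqcrb 0.016), 0 with the running median removed (4.56%) or only the groups compared (0.0249%), 3 unmoderated (4.97%) and 5 without either pair (9.58%). In intermittent hypoxia it was 0 with genes valued on all arrays (3.38%), only the groups compared (2.22%) or the replicate block (5.9%), 1 with 1 probe per gene (7.34%), unmoderated (4.82%) or without the arrays of widest spread (5.68%), and 12 without those whose labels conflict (27.1%), where intermittent hypoxia minus normoxia at 2 weeks had 10 (17.3%; 1 with the running median removed, 0.971%). Over all arrays 10 were called among genes valued on all arrays (35%). The replicate block left the other counts, 18 over all arrays included, as they were. The complex III difference of constant hypoxia from normoxia was -0.064 with 1 probe per gene and -0.082 with the running median removed. Its 4 weeks minus 1 week in constant hypoxia was -0.22 with genes valued on all arrays, -0.014 with 1 probe, -0.026 with the running median removed, -0.33 without either pair and -0.28 as a mean of genes; for complex V it was -0.10 on at least 15 arrays, -0.35 on all, -0.088 with the running median removed, -0.11 without either pair and -0.21 as a mean, and for complex I -0.080 as a mean. Leaving out 1 array gave 13 to 20 genes over all arrays (28.8% and 45.1% in the fits with those counts), and at most, with the share in that fit, 2 in normoxia (7.67%), 11 in constant hypoxia (24.1%), 11 in intermittent hypoxia (20.1%), 4 for constant hypoxia minus normoxia (8.92%) and at 4 weeks (11.6%), 3 for intermittent minus constant (11.7%), 7 at 2 weeks of intermittent hypoxia minus normoxia (13.8%), 5 for duration in constant hypoxia (13.3%) and 3 for its difference from normoxia (7.98%), the lowest count being 0 in each of these. Complex medians for 4 weeks minus 1 week then ran from -0.10 to 0.36 (I) and -0.11 to 0.37 (V) in normoxia, and from -0.80 to -0.33 (III) and -0.11 to 0.31 (V) in constant hypoxia. The pairs of arrays were chosen after seeing the data, and beyond what these settings show the cause was not tested.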
